A study of Saccharomyces cerevisiae with 9 samples.

Results

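A set of 10 genes of nitrogen use was followed across budding yeast arrays: GAP1, MEP2, DAL4, DAL5, DAL1, DAL2, DUR1,2, CAR1, PUT1 and DAL80. They are the nitrogen permease genes and the genes for the breakdown of allantoin, arginine, urea and proline on a list of nitrogen catabolite repressed genes, together with the regulator gene DAL80, and they were matched by gene name, with no value used in the match. The list itself was chosen with earlier results of these data known. All 10 genes were found among the 6256 genes on the arrays, each with 1 probe. By role, 4 encode permeases, 5 encode breakdown enzymes and 1 encodes a regulator.

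Nitrogen catabolite repression keeps such genes low in Saccharomyces cerevisiae while a preferred nitrogen source such as glutamine is at hand. The GATA factors Gln3 and Gat1 activate them when preferred nitrogen runs out, Ure2 holds Gln3 back in the cytoplasm under repression, and the GATA factors Dal80 and Gzf3 act as repressors at the same kind of site. Permeases then bring in amino acids, ammonium, allantoin and allantoate, and the breakdown enzymes release ammonia, much of it by way of urea.

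RNA of a mutant strain and of a reference strain was labelled with different dyes and hybridised together on 9 Agilent 2-colour arrays. The mutants were K123R (CY1272, genotype Htb1_K123R; htb2_delta0), ubp8 (BY10809, ubp8_delta0) and the double mutant (CY1383, Htb1_K123R;htb2_delta0;ubp8_delta0), each compared with wild type BY4742 on 2 arrays of opposite dye, and K123R was also compared with a strain that lacks HTB2 alone (BY13026, htb2_delta0), the HTB2-deleted reference, on 3 arrays. Lysine K123 of histone H2B is the residue that Rad6 and Bre1 ubiquitylate, and the SAGA subunit Ubp8 takes that ubiquitin off again. K123R and the double mutant have the altered HTB1 as their only H2B gene, so against wild type the substitution and the loss of HTB2 cannot be told apart, whereas both strains of the htb2 comparison lack HTB2. The design text describes the arrays as biological replicates, and the growth medium and any shared wild-type RNA are not given in the sources used here.

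Between 99.3% and 99.9% of the spots on an array stood well above background. Outlier spots were left out. Their share was 0.760% to 3.62% on the wild-type arrays and 18.8% to 19.0% on those with the HTB2-deleted reference. The genotype check gave an HTB2 log2 ratio of -3.78 ± 0.13 (SE, n = 2 arrays) in K123R and -3.40 ± 0.13 in the double mutant, and UBP8 was at -2.31 ± 0.12 in ubp8 and -2.36 ± 0.12 in the double mutant. The title of 1 K123R array gives htb1_delta0 where its source label gives htb2_delta0, and its HTB2 log2 ratio was -3.68. The K123R libraries did not match between the comparisons at the marker gene LEU2, whose K123R signal was 2891 and 3368 against wild type but 134, 165 and 105 against the HTB2-deleted reference. HIS3, another marker gene, was higher in K123R in both comparisons, by 3.17 ± 0.37 and 3.63 ± 0.08. Its log2 ratios to wild type were 3.32 and 2.39 in the double mutant and -0.16 and -0.27 in ubp8. HIS3 thus separates the K123R strains from ubp8, and the part of either marker in the results below was not tested. None of the 4 direct comparisons called URA3 or LYS2, and 1 called HTB1, where it was at -0.79 ± 0.08 in K123R against the HTB2-deleted reference. There HTB2, which both strains lack by their labels, was also called lower, at -0.45 ± 0.09. Its arrays read -0.97, -0.06 and -0.71, from low signals of 141 to 193 in K123R and 200 to 284 in the reference. The K123R signal of HTB2 was 959 and 891 on the arrays against wild type. Of the 7 genes specific to mating type a, 0 passed in each direct comparison. Of the 4 alpha-specific genes, 2 were lower in K123R and in the double mutant and 4 were lower in K123R against the HTB2-deleted reference.

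GAP1, DUR1,2, CAR1 and DAL1 rose in K123R against wild type and in the double mutant against wild type, and these 4 and DAL80 rose in K123R against the HTB2-deleted reference. In ubp8, DAL1 was the 1 member that rose, and GAP1, DUR1,2 and CAR1 read below wild type on both arrays without passing. A gene passes here when its adjusted p in limma, by Benjamini-Hochberg over all genes tested, is under 0.05, and log2 ratios are mutant over reference. In K123R against wild type 4 of the 10 members rose and 0 fell, while 21.1% of the 6250 genes tested passed, 10.9% as higher and 10.1% as lower. In the double mutant 4 rose and 0 fell, against 20.0% of the 6246 genes tested, 9.80% as higher and 10.2% as lower. In ubp8 1 rose and 0 fell, against 2.83% of 6246 genes, 1.86% as higher and 0.977% as lower. In K123R against the HTB2-deleted reference 5 rose and 1, DAL4, fell, against 26.8% of 6109 genes, 13.0% as higher and 13.8% as lower. The members were chosen with earlier results of these data known, so the counts beside these shares are descriptive only. The median log2 ratio of the members was 0.30 in K123R against wild type, 0.37 in the double mutant, 0.11 in ubp8 and 0.32 in K123R against the HTB2-deleted reference, where the medians over all genes tested were -0.00264, 0.000621, -0.00667 and -0.00998. The 3 comparisons with wild type share that reference strain, so their values are given side by side. The htb2 comparison was fitted with a dye term and these 3 were not, so calls and counts are not alike between the fits. In a fit with array number, which is also the dye orientation, as a replicate block, DAL80 passed against wild type in each mutant. Its limma adjusted p was then 0.00023 in K123R, 0.00012 in the double mutant and 0.0025 in ubp8. In those fits 66.2%, 65.4% and 49.5% of all genes passed. These RNA samples come from whole cultures, in which fewer cells with a transcript and less RNA per cell cannot be told apart.

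**Figure D1:**
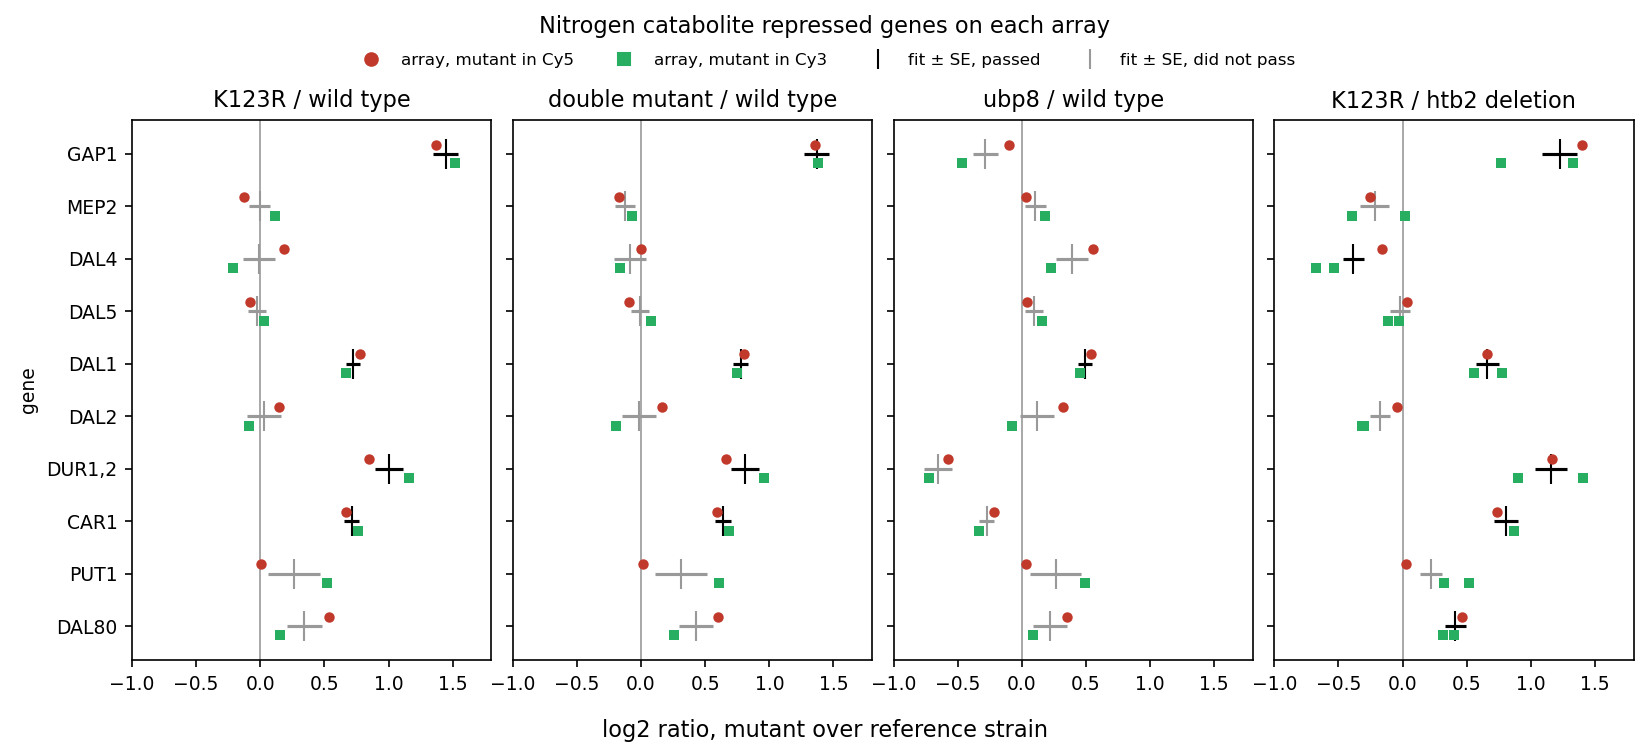
Log2 ratio of mutant over reference strain for each of the 10 genes (vertical axis), with 1 panel per direct comparison. Circles and squares are single arrays with the mutant in Cy5 or Cy3 (2 arrays per panel, 3 in the last), and crosses are the fitted value ± SE, black where the gene passed. GAP1, DUR1,2 and CAR1 lie well above 0 in the 3 panels with K123R strains and below 0 in the ubp8 panel.

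GAP1 (YKR039W) encodes the general amino acid permease, which takes up nearly any amino acid and is a widely used readout of nitrogen catabolite repression. Its normalised signal on the 2 arrays was 2412.5 and 5225.5 in K123R beside 932 and 1827 in wild type, which gives log2 ratios of 1.37 and 1.52. In the double mutant the log2 ratios were 1.36 and 1.38. Both arrays of each of these mutants thus read far above wild type.

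Against the HTB2-deleted reference, GAP1 log2 ratios in K123R were 1.33, 1.40 and 0.77, and array 3, hybridised on another slide than the first pair, was the lowest. In ubp8 they were -0.10 and -0.47, below wild type on both arrays. The fit gave a 2.72-fold higher GAP1 level in K123R than in wild type (log2 ratio 1.44 ± 0.10, n = 2 arrays, limma adjusted p = 0.0030) and a 2.58-fold higher level in the double mutant (1.37 ± 0.10, adjusted p = 0.0039). Against the HTB2-deleted reference the level was 2.34-fold higher (1.22 ± 0.13, n = 3 arrays, limma adjusted p = 0.0149). The ubp8 value of -0.28 ± 0.10 did not pass (adjusted p = 0.173). With array number, which is also the dye orientation, as a replicate block it passed as lower (adjusted p = 0.0312), in a fit in which 49.5% of all genes passed. With the slide as a block it passed as lower too (-0.31, adjusted p = 0.0338). The slide fit has no dye term and does not balance the dyes, since slides held the mutants in Cy5 only, in Cy3 only or in both.

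**Figure D2:**
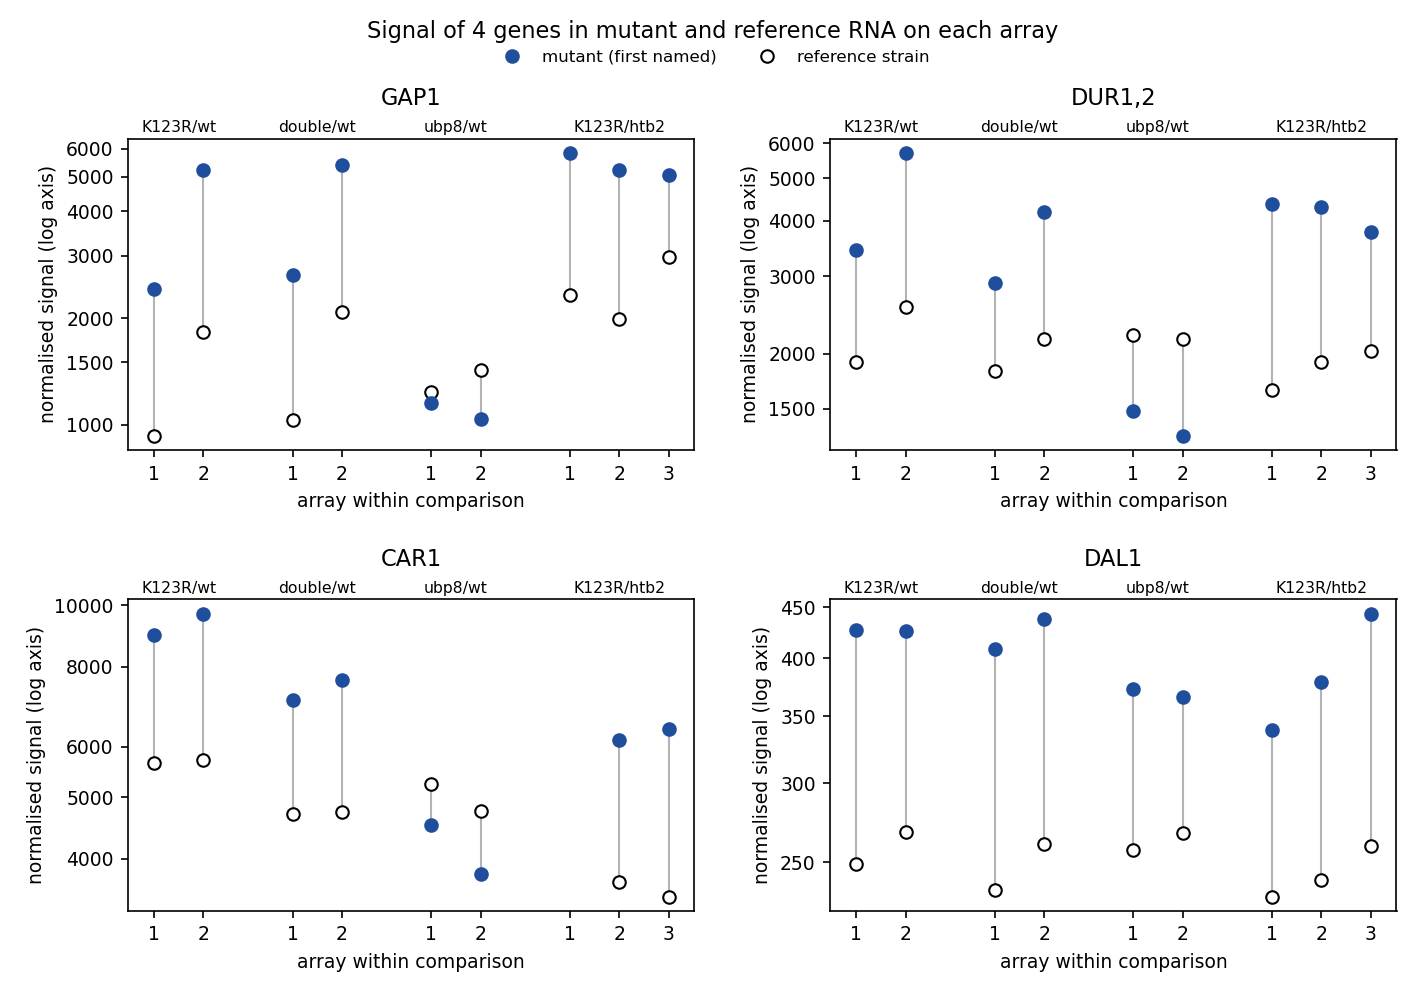
Normalised signal (log axis, arbitrary units) of GAP1, DUR1,2, CAR1 and DAL1 in the mutant (filled) and the reference strain (open) on each array, with a line joining the 2 colours of an array. The mutant lies above its reference on every array of K123R and the double mutant with a value, and GAP1, DUR1,2 and CAR1 lie below it in ubp8. CAR1 has no value on array 1 against the HTB2-deleted reference.

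The other permease genes gave a different picture. MEP2 (YNL142W) encodes a high-affinity ammonium permease that also acts in ammonium sensing. Its log2 ratios were -0.13 and 0.12 in K123R, -0.17 and -0.07 in the double mutant, 0.03 and 0.18 in ubp8, and 0.02, -0.25 and -0.39 against the HTB2-deleted reference. The arrays of K123R against wild type fall on both sides of 0, and MEP2 did not pass in any direct comparison (limma adjusted p from 0.198 to 0.970). With the replicate block it passed in ubp8 (0.11 ± 0.03, adjusted p = 0.0367) and in the double mutant (-0.12 ± 0.03, adjusted p = 0.0156).

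DAL5 (YJR152W), the allantoate permease gene, read between -0.09 and 0.15 on the 6 arrays against wild type and between -0.11 and 0.03 on the 3 against the HTB2-deleted reference. It stayed close to 0 on all 9 arrays and did not pass in any direct comparison (limma adjusted p from 0.514 to 0.953), though with the replicate block it passed in ubp8 at 0.10 ± 0.03 (adjusted p = 0.0260).

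DAL4 (YIR028W), the allantoin permease gene, read 0.19 and -0.21 in K123R against wild type and -0.0043 and -0.16 in the double mutant. In ubp8 it read 0.56 and 0.23, both above wild type, and in K123R against the HTB2-deleted reference it read -0.67, -0.16 and -0.54, all below the reference. DAL4 fell by 0.38 on the log2 scale in K123R against the HTB2-deleted reference (SE 0.08, n = 3 arrays, limma adjusted p = 0.0333). It was at -0.01 ± 0.13 in K123R against wild type (adjusted p = 0.956), so the 2 comparisons of the strain labelled K123R, whose libraries differ at LEU2, did not give the same call, and their difference was not tested. The fall did not pass without array 1 (-0.35, adjusted p = 0.188) or without array 3 (-0.42, adjusted p = 0.0954) of the htb2 comparison. In ubp8 the fitted 0.39 ± 0.13 did not pass (adjusted p = 0.157) but did with the replicate block (adjusted p = 0.0013), with the slide as a block (0.49 ± 0.09, adjusted p = 0.0242) and under median centring (0.45, adjusted p = 0.0411). With the slide as a block DAL4 was also lower in K123R minus ubp8 (-0.58, adjusted p = 0.0271) and in the double mutant minus ubp8 (-0.58, adjusted p = 0.0397). Without a block these were -0.40 and -0.48 and did not pass.

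Among the breakdown enzymes, DUR1,2 (YBR208C) encodes urea amidolyase, which turns urea into ammonia and carbon dioxide. Its signal was 3443 and 5707 in K123R beside 1914 and 2558 in wild type, which gives log2 ratios of 0.85 and 1.16. The double mutant read 0.66 and 0.96, and K123R against the HTB2-deleted reference read 1.40, 1.17 and 0.90. In ubp8 the signal was 1480 and 1303 beside 2205 and 2156 in wild type, that is -0.58 and -0.73. The ubp8 arrays lie below wild type and the 7 arrays of K123R strains above their reference. These 7 arrays repeat strains and differ in reference strain, and the share of all genes with such a split was not counted.

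The fit gave a 2.0-fold rise of DUR1,2 in K123R against wild type (1.00 ± 0.11, n = 2 arrays, limma adjusted p = 0.0058). The double mutant rose 1.75-fold (0.81 ± 0.11, adjusted p = 0.0104), and K123R against the HTB2-deleted reference rose 2.23-fold (1.16 ± 0.13, n = 3 arrays, limma adjusted p = 0.0149). The ubp8 value of -0.65 ± 0.11, which is 1.57-fold lower, lay just outside the threshold (adjusted p = 0.0501). It passed as lower with the replicate block (adjusted p = 0.0019), with the slide as a block (-0.75 ± 0.07, adjusted p = 0.0026) and when the 2 ubp8 arrays were fitted alone (adjusted p = 0.0030).

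CAR1 (YPL111W) encodes arginase, which splits arginine into ornithine and urea. Its signal was 8977 and 9698 in K123R beside 5662.5 and 5717.5 in wild type, for log2 ratios of 0.66 and 0.76. The double mutant read 0.59 and 0.69, ubp8 read -0.22 and -0.33, and K123R against the HTB2-deleted reference read 0.74 and 0.87 on arrays 2 and 3. Both CAR1 spots of array 1 in that comparison were marked as outliers, so its value there is the mean of 2 arrays of opposite dye without a dye term. As for DUR1,2, the ubp8 arrays lie below 0 and those of the K123R strains above it. CAR1 rose 1.64-fold in K123R (0.71 ± 0.06, n = 2 arrays, limma adjusted p = 0.0035), 1.56-fold in the double mutant (0.64 ± 0.06, adjusted p = 0.0047) and 1.75-fold against the HTB2-deleted reference (0.80 ± 0.10, adjusted p = 0.0152). In ubp8 it was at -0.27 ± 0.06 (adjusted p = 0.0804), and it passed as lower with the replicate block (adjusted p = 0.0040) and with the slide as a block (-0.31 ± 0.06, adjusted p = 0.0301).

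DAL1 (YIR027C) encodes allantoinase, the first enzyme of allantoin breakdown, and was the member that rose in all 4 direct comparisons. Its log2 ratios were 0.78 and 0.67 in K123R, 0.80 and 0.75 in the double mutant, 0.54 and 0.45 in ubp8, and 0.55, 0.66 and 0.77 against the HTB2-deleted reference. All 9 arrays were above 0 for DAL1. The fit gave 0.72 ± 0.06 in K123R (limma adjusted p = 0.0033), 0.78 ± 0.06 in the double mutant (adjusted p = 0.0039), 0.49 ± 0.06 in ubp8 (adjusted p = 0.0308) and 0.66 ± 0.09 against the HTB2-deleted reference (adjusted p = 0.0178). The ubp8 call was lost when any 1 of the 6 arrays against wild type was left out. Its adjusted p was then 0.0814 and 0.0816 without K123R array 1 or 2, 0.0877 and 0.0880 without double mutant array 1 or 2, and 0.326 and 0.263 without ubp8 array 1 or 2. Where ubp8 kept 2 arrays its value stayed at 0.49.

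DAL2 (YIR029W) encodes allantoicase, the next enzyme of the pathway. It read 0.14 and -0.08 in K123R, 0.16 and -0.19 in the double mutant, 0.32 and -0.08 in ubp8, and -0.30, -0.04 and -0.32 against the HTB2-deleted reference. Within each wild-type pair its arrays fall on both sides of 0, and it did not pass in any direct comparison (limma adjusted p from 0.151 to 0.953), though with the replicate block it passed in ubp8 at 0.12 ± 0.04 (adjusted p = 0.0329).

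DAL1, DAL4 and DAL2 are adjacent in the R64 annotation, followed by DCG1, DAL7 and DAL3, which also belong to the allantoin cluster. In K123R against wild type DCG1 rose by 0.63 ± 0.06 (limma adjusted p = 0.0040), while DAL7, which encodes a malate synthase, was at -0.04 ± 0.05 (adjusted p = 0.554) and DAL3, for ureidoglycolate lyase, at 0.18 ± 0.07 (adjusted p = 0.125). DCG1 also rose in the double mutant (0.61 ± 0.06, adjusted p = 0.0047) and against the HTB2-deleted reference (0.43 ± 0.08, adjusted p = 0.0255), and was at 0.17 ± 0.06 in ubp8 without passing. In the fit with the replicate block DAL3 passed as higher in K123R (adjusted p = 0.0016), the double mutant (0.0026) and ubp8 (0.0168), DCG1 as higher in ubp8 (0.0098), and DAL7 as lower in the double mutant (0.0252) and ubp8 (0.0041). Differences between neighbouring genes were not tested.

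PUT1 (YLR142W) encodes proline oxidase, the first enzyme of proline breakdown. It read 0.01 and 0.52 in K123R, 0.02 and 0.61 in the double mutant and 0.04 and 0.49 in ubp8. Array 1 of each pair was thus close to 0 and array 2 about 0.5 higher. Against the HTB2-deleted reference PUT1 read 0.52, 0.03 and 0.33, and here array 2 was near 0. In all 4 comparisons the array near 0 was the one with the mutant in Cy5. The fitted values of 0.26 ± 0.20, 0.31 ± 0.20, 0.26 ± 0.20 and 0.22 ± 0.09, in the same order, did not pass (limma adjusted p = 0.415, 0.330, 0.539 and 0.113). With the replicate block PUT1 passed as higher in ubp8 (0.26 ± 0.03, adjusted p = 0.0016), in K123R (0.26 ± 0.03, adjusted p = 0.00073) and in the double mutant (0.31 ± 0.03, adjusted p = 0.00038). With the slide as a block it also passed in K123R (0.44 ± 0.08, adjusted p = 0.0062) and in the double mutant (0.32 ± 0.08, adjusted p = 0.0214). In ubp8 it was then at 0.08 (adjusted p = 0.513), and the slide fit does not balance the dyes that PUT1 followed. PUT1 passed too in the fit of the 2 double mutant arrays alone (adjusted p = 0.0384). That fit gave every member the same SE of 0.115, so its p-value does not follow the spread between the 2 PUT1 arrays. Without array 2 of the htb2 comparison PUT1 passed at 0.42 (adjusted p = 0.0364).

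DAL80 (YKR034W), the gene of a GATA repressor that is itself under nitrogen catabolite repression, gave low signals, between 103 and 165 in the mutants and between 93.9 and 133 in the references. On array 2 against the HTB2-deleted reference its reference channel was not well above background. Its log2 ratios were 0.54 and 0.15 in K123R, 0.60 and 0.25 in the double mutant, 0.35 and 0.09 in ubp8, and 0.40, 0.47 and 0.31 against the HTB2-deleted reference. All 9 arrays were above 0. DAL80 rose by 0.41 ± 0.08 in K123R against the HTB2-deleted reference (n = 3 arrays, limma adjusted p = 0.0280), a call that was lost without array 1 (0.39, adjusted p = 0.127) and under median centring (0.34, adjusted p = 0.0527). In K123R against wild type it was at 0.34 ± 0.13 (adjusted p = 0.132), in the double mutant at 0.43 ± 0.13 (adjusted p = 0.0817) and in ubp8 at 0.22 ± 0.13 (adjusted p = 0.429), and with the replicate block each of these passed (adjusted p = 0.00023, 0.00012 and 0.0025). They also passed with the slide as a block, at 0.24, 0.41 and 0.34 (adjusted p = 0.0388, 0.0076 and 0.0306), and under median centring in K123R (0.46, adjusted p = 0.0151) and the double mutant (0.62, adjusted p = 0.0095). The fit of the 2 double mutant arrays alone called DAL80 too (adjusted p = 0.0026). That fit gave every member the same SE of 0.115, so its p-values do not follow the spread between a gene's own arrays. The size of the DAL80 value moved with the processing. From the scanner software's own processed signals, which differ in both background correction and dye normalisation, it was 1.67 ± 0.14 against the HTB2-deleted reference (adjusted p = 0.00064), 0.73 ± 0.34 in K123R (adjusted p = 0.195), 0.59 ± 0.34 in ubp8 (adjusted p = 0.399) and 1.04 ± 0.34 in the double mutant (adjusted p = 0.0934).

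With the replicate block 6 members passed in K123R against 66.2% of all genes, 7 in the double mutant against 65.4%, and all 10 in ubp8, 7 as higher and 3 as lower, against 24.9% and 24.6%. In ubp8 6 members passed with the slide as a block, against 12.0% of all genes, 2 under median centring, against 2.63%, and 2 in the fit of its own arrays, against 3.20%. Without that block, GAP1 was the 1 member called in K123R against wild type whichever of its arrays was left out. Without array 1 of that pair, DAL1 (adjusted p = 0.0661), DUR1,2 (0.0602) and CAR1 (0.0616) no longer passed. Without array 2, DUR1,2 (adjusted p = 0.0639) and CAR1 (0.0578) did not pass. In the double mutant the 4 members were lost with either of its arrays left out, at adjusted p = 0.0612 and 0.0669 for GAP1, 0.0612 and 0.0669 for DAL1, 0.0727 and 0.102 for DUR1,2, and 0.0645 and 0.0730 for CAR1. These fits take the lone array to vary like the other groups, and over all genes they called 34 and 96 genes in K123R and 3 and 3 in the double mutant.

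The differences between mutants were tested as contrasts through wild type, in the fit of the 6 arrays. K123R and the double mutant also differ from ubp8 in HTB2 and HIS3 signal, and K123R in LEU2 signal. The parts of these differences were not tested. K123R exceeded ubp8 in 3 of the 10 members, GAP1, DUR1,2 and CAR1, while 8.49% of 6246 genes passed in that contrast, 3.81% as higher. The difference was 1.73 ± 0.14 for GAP1 (95% interval 1.38 to 2.07, limma adjusted p = 0.0086), 1.65 ± 0.15 for DUR1,2 (1.27 to 2.04, adjusted p = 0.0113) and 0.99 ± 0.08 for CAR1 (0.77 to 1.20, adjusted p = 0.0097). The same 3 genes exceeded ubp8 in the double mutant, by 1.65, 1.46 and 0.91, against 6.87% of 6244 genes, 2.87% as higher. For DAL1 the difference between K123R and ubp8 was 0.23, with an interval from 0.03 to 0.43, and did not pass (adjusted p = 0.137). Leaving out 1 array of either pair raised the adjusted p in K123R minus ubp8 above 0.05 for DUR1,2 and CAR1, to between 0.0562 and 0.0799 and between 0.0621 and 0.0787. For GAP1 it rose to 0.0562 and 0.0699 without K123R array 1 or 2 and to 0.0559 without ubp8 array 2. In the double mutant minus ubp8, leaving out either double mutant array or ubp8 array 2 ended all 3 calls, and without ubp8 array 1 GAP1 alone passed (adjusted p of the lost calls from 0.0703 to 0.123).

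With the replicate block 6 members passed in K123R minus ubp8, where DAL1 was also higher and DAL4 and DAL5 were lower, in a fit in which 56.5% of genes passed. In the double mutant minus ubp8 7 passed, with DAL1 and DAL80 also higher and MEP2 and DAL4 lower, against 54.6% of genes. K123R array 2 and ubp8 array 1 lay on 1 slide with opposite dyes, and there K123R exceeded ubp8 by 1.62 for GAP1, 1.73 for DUR1,2 and 0.98 for CAR1. Double mutant array 2 and ubp8 array 2 lay on another slide with the same dye, and there the double mutant exceeded ubp8 by 1.85, 1.68 and 1.02.

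Between the double mutant and K123R 0 of the 10 members passed the threshold in limma, and 0 of 6246 genes passed (0%). The strains of this contrast differ at LEU2 as well as at UBP8, since the LEU2 log2 ratio to wild type was 3.70 in K123R and -0.05 in the double mutant. At an unadjusted p under 0.05 there were 0 members and 44 of all genes, and with the replicate block 0 members and 14 of all genes (0.224%) passed. In that contrast UBP8, which the double mutant lacks, was at -2.16 and did not pass either (adjusted p = 0.0917). The double mutant differed from K123R by -0.08 for GAP1 (95% interval -0.42 to 0.27), by -0.19 for DUR1,2 (-0.58 to 0.19), by -0.07 for CAR1 (-0.29 to 0.14) and by 0.05 for DAL1 (-0.14 to 0.25). The widest interval among the members was that of PUT1, from -0.67 to 0.77. On the slide that carried array 1 of both mutants with the same dye, K123R exceeded the double mutant by 0.01 for GAP1, 0.18 for DUR1,2 and 0.07 for CAR1.

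**Figure D3:**
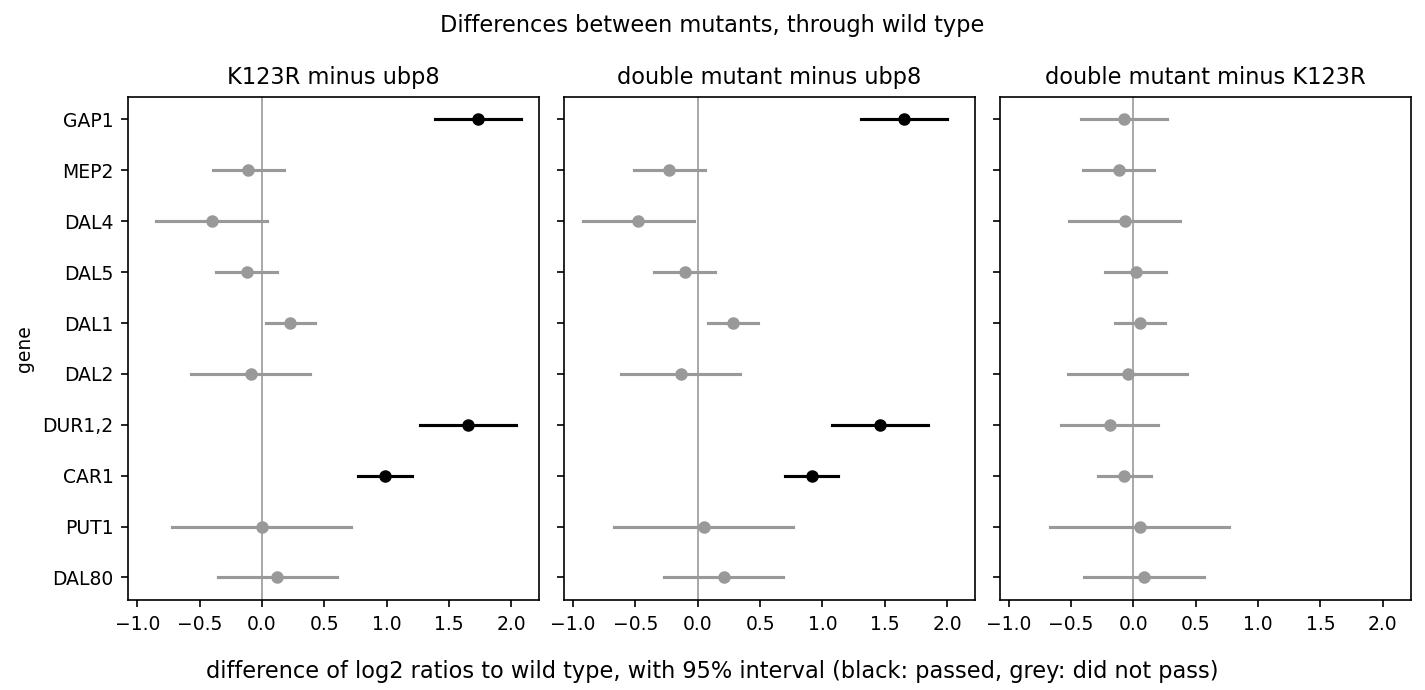
Difference of log2 ratios to wild type between mutants for each of the 10 genes, from the fit of 6 arrays. Points are fitted differences, lines are 95% intervals, and black marks genes that passed. GAP1, DUR1,2 and CAR1 differ between either K123R strain and ubp8, and all 10 intervals of the double mutant minus K123R include 0.

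The 2 arrays of a pair differed in a way that most members repeated across the 3 mutants. Array 1 minus array 2 had the same sign in all 3 pairs for 7 members and mixed signs for 3, which were GAP1, DUR1,2 and CAR1. Over all genes, deviations of same-numbered arrays correlated at 0.865 to 0.886, so a repeated sign is not particular to the members. The share of all genes with a repeated sign was not counted. PUT1 differed by -0.51, -0.59 and -0.45 in K123R, the double mutant and ubp8. DAL80 differed by 0.39, 0.35 and 0.26, and DAL2 by 0.23, 0.36 and 0.40. GAP1 differed by -0.14 and -0.02 in the K123R strains and by 0.37 in ubp8. Within the wild-type pairs, array number, dye orientation and any wild-type RNA that same-numbered arrays share cannot be told apart. The htb2 comparison had the mutant in Cy5 on array 2 and no wild-type RNA. Whether its arrays repeat these differences by dye was not tested.

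**Figure D4:**
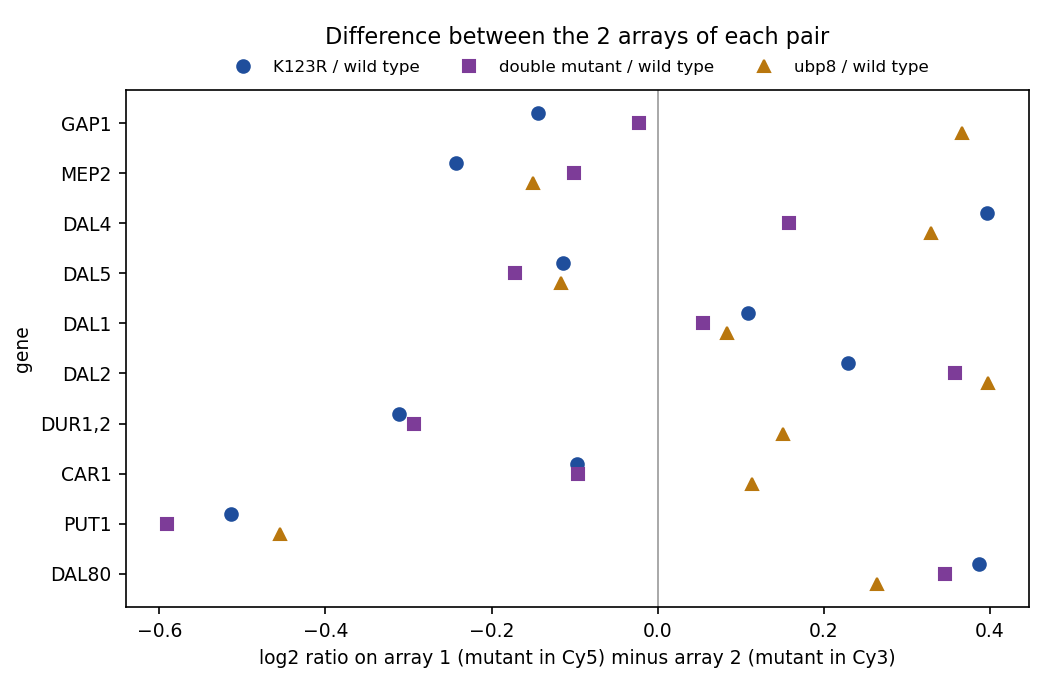
Log2 ratio on array 1 minus that on array 2 of the same pair for each of the 10 genes, in K123R (circles), the double mutant (squares) and ubp8 (triangles) against wild type. PUT1 lies between -0.45 and -0.59 and DAL80 between 0.26 and 0.39 in the 3 pairs, whereas the ubp8 values of GAP1, DUR1,2 and CAR1 lie on the other side of 0 from the K123R strains.

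Beyond the 10 members, 36 further genes of nitrogen use were listed, also with earlier results of these data known. Of these, 12 rose and 3 fell in K123R against wild type (over all genes 10.9% and 10.1%), 8 rose and 3 fell in the double mutant (9.80% and 10.2%), and 1 rose and 3 fell in ubp8 (1.86% and 0.977%). Among the 35 with a value against the HTB2-deleted reference, 8 passed as higher and 0 as lower (13.0% and 13.8%). The counts by role below are read against the same shares. Their median log2 ratios were 0.11, 0.11, -0.03 and 0.18. The counts against wild type moved with the arrays used, since the fits that left out 1 array passed 0 to 9 of these genes in K123R, 0 to 7 in the double mutant and 0 in ubp8. With the replicate block 26, 30 and 26 passed, in fits in which 66.2%, 65.4% and 49.5% of all genes passed.

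Of 10 other permease genes, 5 rose and 2 fell in K123R. OPT2, of the oligopeptide transporter family, rose by 1.05 ± 0.10 (limma adjusted p = 0.0041), the amino acid permease gene AGP1 by 0.59 ± 0.06 (adjusted p = 0.0044) and the urea transporter gene DUR3 by 0.69 ± 0.12 (adjusted p = 0.0194). DIP5, for a permease of acidic amino acids, fell by 0.76 (SE 0.07, adjusted p = 0.0041). Among these genes 3 rose and 2 fell in the double mutant, with OPT2 at 1.06, AGP1 at 0.61, DUR3 at 0.61 and DIP5 at -0.53, where DUR3 did not pass under median centring (adjusted p = 0.0640). AGP1 was the 1 listed permease gene that passed in ubp8, where it fell by 0.49 (SE 0.06, adjusted p = 0.0323). Against the HTB2-deleted reference DUR3 rose by 0.68 ± 0.09 (adjusted p = 0.0172), while AGP1 at 0.18 (adjusted p = 0.317) and DIP5 at -0.34 (adjusted p = 0.0555) did not pass. OPT2 is counted as higher there from array 1 alone, at 1.02, and its spots on arrays 2 and 3, left out as outliers, have deposited log2 ratios of 0.61 and 0.61 beside 1.09 on array 1. Its call there has no replicate check.

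Of 9 other breakdown enzyme genes, 4 rose and 1 fell in K123R. CAR2, for the ornithine aminotransferase that acts after arginase, fell by 0.73 (SE 0.08, limma adjusted p = 0.0065), while CAR1 rose. CAR2 was at -0.60 in the double mutant and passed as lower, and in ubp8 it was at -0.50 (adjusted p = 0.0501). Against the HTB2-deleted reference it was at 0.07 (adjusted p = 0.668), but its arrays there read 0.33, -0.39 and 0.72. The array below 0 was the one with the mutant in Cy5. UGA1 and UGA2, of the breakdown of 4-aminobutyrate, were both higher in K123R (0.23 and 0.30), and in ubp8 UGA1 fell by 0.38 (adjusted p = 0.0377) while UGA2 rose by 0.35 (adjusted p = 0.0401). The K123R calls were lost in the fit of its own arrays (adjusted p = 0.13 and 0.0518) and the ubp8 calls in the fit of the ubp8 arrays (0.0629 and 0.0870) and with the processed signals (both 0.0501). GDH2, for the glutamate dehydrogenase that releases ammonia, rose by 0.99 ± 0.08 against the HTB2-deleted reference (adjusted p = 0.0100).

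Of the 3 genes of ammonia assimilation, GDH1, for the glutamate dehydrogenase that fixes ammonia, rose in K123R (0.61 ± 0.06, limma adjusted p = 0.0043), in the double mutant (0.67 ± 0.06, adjusted p = 0.0039) and against the HTB2-deleted reference (1.18 ± 0.08, adjusted p = 0.0077). In ubp8 it fell by 0.46 (SE 0.06, adjusted p = 0.0363), a call lost with the processed signals (adjusted p = 0.0604) and the deposited values (0.0605). GLT1 did not pass in any of the 4, though with the replicate block it passed in K123R (-0.11, adjusted p = 0.0298), the double mutant (-0.18, adjusted p = 0.0054) and ubp8 (0.14, adjusted p = 0.0179). The GLN1 spot was saturated in at least one colour on all 9 arrays, so its ratios are not described. Of 14 regulator genes, the activator genes GLN3 and PUT3 rose in K123R (0.55 ± 0.13, adjusted p = 0.0410, and 0.23 ± 0.05, adjusted p = 0.0309) and in the double mutant (0.54 and 0.25). Both also rose against the HTB2-deleted reference (0.78 and 0.50), as did GAT1 (0.34 ± 0.08, adjusted p = 0.0390). The GLN3 call in K123R was lost under median centring (adjusted p = 0.0508) and that of PUT3 likewise (adjusted p = 0.0607), as were those in the double mutant (adjusted p = 0.0598 and 0.0556). None of the 14 regulator genes passed in ubp8, but with the replicate block 3 passed as higher and 4 as lower. Among these were GLN3 (-0.17, adjusted p = 0.0041), GZF3 (-0.15, adjusted p = 0.0062) and PUT3 (0.20, adjusted p = 0.0032). URE2 did not pass in any of the 4 or with the block.

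**Figure D5:**
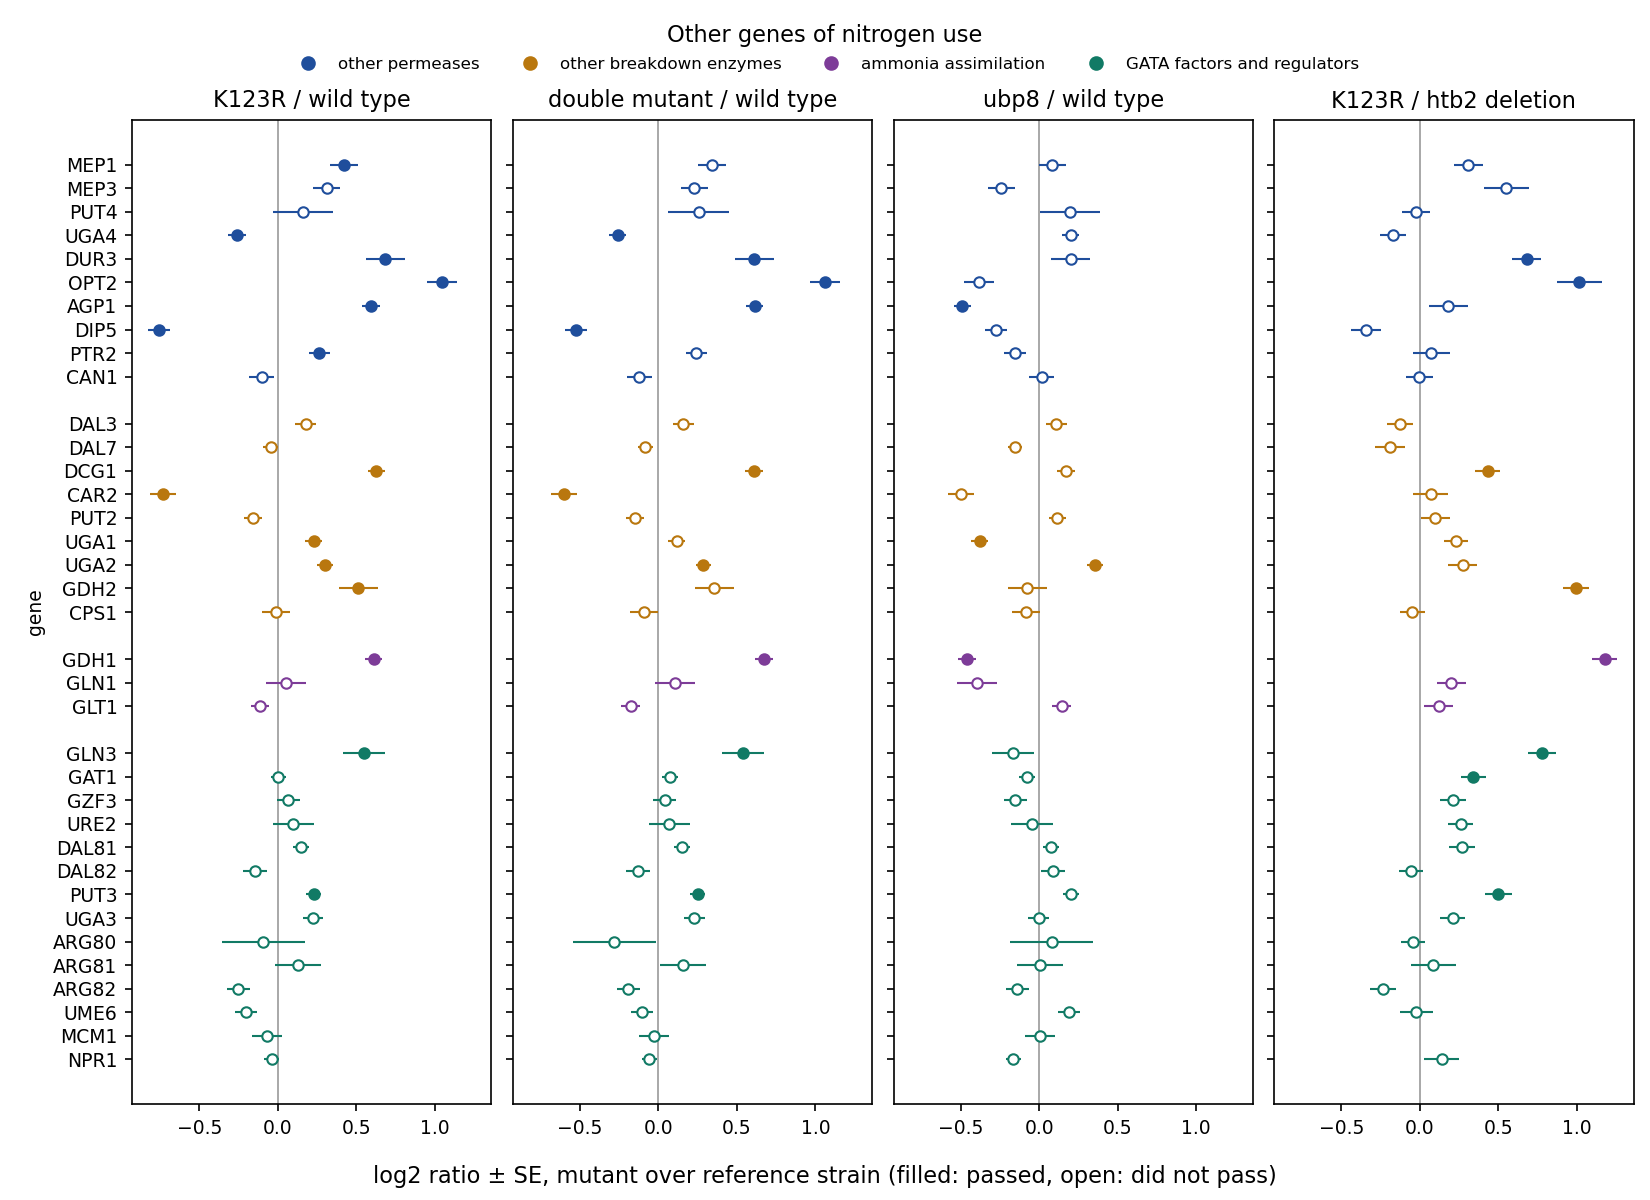
Log2 ratio ± SE of 36 other genes of nitrogen use in the 4 direct comparisons, coloured by list. Filled points passed and open points did not. OPT2, AGP1 and GDH1 are above 0 in K123R and the double mutant and below 0 in ubp8, whereas CAR2 and DIP5 are below 0 in all 3.

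The genes outside these lists whose log2 ratios over the 9 arrays were most like the mean of the members were SPR2 (Pearson r = 0.977), YME2 (0.971), BNA4 (0.970), COS12 (0.966) and MLS1 (0.957), out of 5232 ranked. The arrays share reference strains and hold 3 sets of K123R strains, so these r values describe the ranking only. COS12, from a gene family near chromosome ends, was 3.05 higher in K123R against wild type on the log2 scale. There BNA4, for kynurenine 3-monooxygenase, was 1.39 higher, MLS1, for malate synthase, 0.92 higher, and SPR2 0.63 higher. YME2, for a mitochondrial inner membrane protein, was at 0.16 and did not pass (limma adjusted p = 0.0696). In ubp8 COS12 was also higher, at 1.18 (adjusted p = 0.0240), and the other genes of this ranking did not pass. That COS12 call was lost with the processed signals (adjusted p = 0.0590) and the deposited values (0.0595).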

How the data were processed

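The spot intensities come from Agilent Feature Extraction, per the file headers in an older version for the wild-type comparisons and in version 8.5.1.1 for the others. The authors deposited scanner files with mean signal, median background and processed signal per colour. Their series values are deposited as log10 ratios of mutant over reference, and they equal the software's dye-normalised signals within 5.0e-10. No genome build is given in the sources used here.

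Log2 ratios were computed from the deposited mean intensity in R 4.3.3 with limma 3.58.1, by normexp with an offset of 50 and loess within each array. Control and outlier spots were left out, saturated spots kept, and spots of a probe averaged. Genes well above background on at least 3 of 6 or 2 of 3 arrays were tested. The 6 arrays against wild type shared 1 fit with a mean per mutant (3 residual degrees of freedom). The 3 arrays against the HTB2-deleted reference were fitted with a dye term (1 residual degree of freedom). P-values were adjusted by Benjamini-Hochberg over all genes tested, and the threshold was 0.05. The number of arrays limits the precision.

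Array numbers in the titles are shared by the 3 wild-type pairs and mark the dye orientation. Deviations of same-numbered arrays from their pair means correlated at 0.865 to 0.886 across genes, so the numbers were taken to pair the arrays, and a fit with array number as a replicate block is given where it changes a call of a member, and for other genes in counts and examples. Residuals of the fit without the block are therefore not independent, and its p-values are approximate. If same-numbered arrays shared a wild-type extract, its error is absent from the residual of the blocked fit.

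Slides were tested as a block, without a dye term. Of the slides with wild type, slide 1 held mutants in Cy5 only, slide 3 in Cy3 only and slide 2 in both. Dye effects can therefore enter the values of that fit. Other alternatives were the processed signals, the deposited values, median centring, outlier spots kept, no filter, each pair alone, no dye term, and each array left out. On simulated ratios with 50 genes at each size, 86% of changes of 0.5 and 100% of changes of 2 were called for K123R against wild type, and 94% and 100% for K123R against the HTB2-deleted reference. These shares hold for the simulated ratios of those comparisons. They do not give the share that would be called in ubp8, where 2.83% of genes passed. Nor do they give that share for measured genes, whose same-numbered arrays deviate together. In K123R against wild type the SE was 0.13 for GLN3 and 0.20 for PUT1.

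The members and gene lists were chosen with earlier results of these data known. By the naming rule, all 10 members are named in each direct comparison, up to 4 passing genes with the smallest adjusted p from each other list, the genotype markers, the neighbours in the DAL cluster, and the 5 genes most like the members. GLN1, GLT1, URE2 and GZF3 were named outside the rule, after their values were seen. Of 6256 gene names, 5756 matched a locus tag of the RefSeq R64 annotation, used for names and neighbours.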

Additional observations from a re-analysis of the deposited data

Results flagged for a closer look

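The log2 ratios of K123R and of ubp8, each against wild type, differed by a test of the difference itself in 3 of the 10 genes. These strains also differ in HTB2, HIS3 and LEU2 signal, so the test compares strains and not single changes. The difference on the log2 scale, K123R minus ubp8, was 1.73 for GAP1, 1.65 for DUR1,2 and 0.99 for CAR1. Each of the 3 genes was above wild type on both K123R arrays and below it on both ubp8 arrays. Groups of 2 or 3 arrays are too small for a test of single arrays that stand apart.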

How the results depend on the processing

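The number of members that passed, out of 10, was 4 in K123R, 1 in ubp8, 4 in the double mutant and 6 in K123R against the HTB2-deleted reference, and 3, 0 and 3 in K123R minus ubp8, the double mutant minus K123R and the double mutant minus ubp8. With the replicate block, which pairs same-numbered arrays, it was 10 in ubp8 (7 higher, 3 lower), 7 in the double mutant, 6 in K123R minus ubp8 and 7 in the double mutant minus ubp8. In K123R it was 6, and 0 in the double mutant minus K123R. In ubp8 it was also 6 with the slide as a block (3 higher, 3 lower), 2 under median centring and 2 from its own arrays alone (1 higher, 1 lower), in fits in which 12.0%, 2.63% and 3.20% of all genes passed. Every other count outside the single-array omissions lay within 1.5 times the one reported. Leaving out 1 array at a time gave 1 to 4 in K123R, 0 in ubp8, 0 to 4 in the double mutant, 4 to 7 against the HTB2-deleted reference, 0 to 3 in K123R minus ubp8, 0 in the double mutant minus K123R and 0 to 3 in the double mutant minus ubp8.

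No passing member or other named gene that passed changed direction under these alternatives. Over all genes, 1317 passed in K123R, 177 in ubp8 and 1247 in the double mutant, and with the replicate block 4137, 3091 and 4088. The count in ubp8 was 91 with the processed signals and 112 with the deposited values, and the omissions gave 0 to 8. Among values of other named genes, 32 of 533 lost their call outside the omissions and 154 of 356 within them. For the 36 other pathway genes, 4 passed in ubp8, 1 with the processed signals and 10 with the slide as a block, and in the double mutant 11 and, with the slide as a block, 17. DAL80 gave low signals, and its value moved with the processed signals, which change background correction and dye normalisation together, and with median centring.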
